A study of Mus musculus with 2 samples.

Results

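Primary cultures of mouse aortic vascular smooth muscle cells (VSMCs) were examined for 10 genes of the vascular endothelial growth factor (VEGF), angiopoietin and Tie system, out of 31053 genes in the deposited tables. The genes were chosen by name: the ligand genes Vegfa, Vegfc, Angpt1 and Angpt2, the VEGF receptor genes Kdr, Flt1 and Flt4, the co-receptor gene Nrp1, and the receptor genes Tek and Tie1. All 10 were present in the tables and all 10 passed the filter on low counts in the comparisons between cell classes.

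Cells came from the thoracic aorta of wild type mice, were released with enzymes, and were profiled after 5 days in culture by droplet-based single-cell RNA sequencing (scRNA-seq) from the 3′ end of the transcripts. There was 1 group with 2 libraries, biological replicates 1 and 2, and the study's methods describe pooling of aortae within a preparation, both sexes and a C57BL6/N background, with no age given for these mice. Cells with at least 300 genes, at least 3000 unique molecular identifiers (UMIs, 1 per captured transcript) and less than 20% mitochondrial UMIs were kept, which left 4866 and 6824 cells with a median of 22234.5 and 16310 UMIs. A preparation of VSMCs also carries endothelial cells (ECs), so ECs, strongly contractile cells and weakly contractile cells could be compared inside each library.

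Cells were sorted into classes by counts of a few genes, none of which belongs to the 10. ECs had at least 2 UMIs in at least 2 of Pecam1, Cdh5, Cldn5 and Gja4, which gave 102 and 141 cells. The other cells were split by Myh11, the gene of smooth muscle myosin heavy chain and a marker of the contractile state. At least 5 Myh11 UMIs were found in 473 and 879 cells and at most 1 in 3954 and 5362 cells, while 337 and 442 cells lay between. Endothelial genes that the rule did not use marked the first class: Emcn stood at 242 and 564 UMIs per 1000000 UMIs of the summed cells (CPM) in ECs against 0.491 and 0.554 in Myh11 ≤1 cells, and Clec14a at 353 and 410 against 1.96 and 2.46. The summed level of 5 contractile markers was 22523 and 22780 CPM in Myh11 ≥5 cells, 6127 and 3362 in Myh11 ≤1 cells, and 2765 and 1967 in ECs, where all 5 were present. Of the ECs, 97 of 102 and 138 of 141 had at most 1 Myh11 UMI. Macrophage markers summed to between 3.40 and 23.4 CPM in the 3 classes. The highest sum was in ECs of library 2, mostly from Cd68. Cd68 was at 6.62 and 19.4 CPM in ECs and 0.971 and 1.65 in Myh11 ≥5 cells, while Ptprc, Adgre1 and C1qa were at 0 in ECs.

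VEGF ligands are secreted dimers that bind receptor tyrosine kinases, and the main endothelial receptor for VEGF-A is encoded by Kdr (VEGFR-2). The product of Flt1 (VEGFR-1) binds VEGF-A and placental growth factor tightly and can be shed as a soluble decoy, Flt4 encodes the receptor for VEGF-C and VEGF-D that is prominent in lymphatic endothelium, and Nrp1 encodes neuropilin-1, a co-receptor shared with semaphorins. Angiopoietin-1 activates the receptor Tie2, the product of Tek, angiopoietin-2 competes with it in many settings, and Tie1 encodes a partner of Tie2 without a strong ligand of its own. In vessels, mural cells such as smooth muscle cells are a textbook source of VEGF-A and angiopoietin-1, and ECs carry the receptors and store angiopoietin-2. The 3′ assay counts a tag near the end of the transcript, so it does not separate soluble from membrane-bound Flt1 or the splice forms of Vegfa.

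The receptor genes Kdr, Flt4, Tek and Tie1 were at far higher levels in ECs than in the other classes. Over both libraries, ECs held 430 Kdr, 265 Tek, 133 Flt4 and 426 Tie1 UMIs. The many more Myh11 ≤1 cells held 114, 102, 30 and 12. The part of free RNA in the latter counts was not tested. In the 2 libraries, Kdr stood at 117 and 115 CPM in ECs, 0.373 and 0.206 in Myh11 ≥5 cells, and 0.606 and 0.597 in Myh11 ≤1 cells. At least 1 Kdr UMI was seen in 65.7% and 59.6% of ECs against 1.11% and 0.858% of Myh11 ≤1 cells. Both EC values lay far above every value of the smooth muscle classes, and the libraries differed little. Kdr was higher in ECs by 8.54 ± 0.25 log2 units (SE) against Myh11 ≥5 cells and by 7.49 ± 0.21 against Myh11 ≤1 cells, with adjusted p-values of 5.86e-05 and 3.75e-05 (edgeR quasi-likelihood test over 13226 genes, 2 libraries per class).

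Tek, the gene of Tie2, was at 74.4 and 68.0 CPM in ECs, at 0.373 and 0.206 in Myh11 ≥5 cells, and at 0.606 and 0.469 in Myh11 ≤1 cells. It was higher in ECs by 7.84 ± 0.33 and 6.95 ± 0.28 log2 units, with adjusted p-values of 0.000169 and 0.000113 (edgeR). Tie1 was at 106 and 124 CPM in ECs, where 78.4% and 73.8% of cells had a UMI. In all Myh11 ≥5 cells only 2 and 1 Tie1 UMIs were counted, and in all Myh11 ≤1 cells 7 and 5. Over both libraries, the ratio of the EC level to that of Myh11 ≥5 cells was 1255 with a 95% exact counting interval of 427 to 6110, and the ratio to Myh11 ≤1 cells was 1812, with an interval of 1026 to 3534. Among the genes tested, Tie1 passed with adjusted p-values of 8.18e-05 and 3.75e-05 (edgeR).

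Flt4, the receptor gene for VEGF-C and VEGF-D, was at 38.7 and 32.6 CPM in ECs. No Flt4 UMI was found in the 473 Myh11 ≥5 cells of library 1, which allows up to 0.634% of cells with a UMI and sets no limit on cells that express the gene, and 1 was found in library 2. Myh11 ≤1 cells held 6 and 24 UMIs, or 0.0627 and 0.256 CPM. The ratio of the EC level to that of Myh11 ≥5 cells was 1175, with a counting interval of 207 to 46772 because it rests on 1 UMI, and the ratio to Myh11 ≤1 cells was 226, with an interval of 151 to 348. Both ratios pool the libraries, and their intervals leave out the spread between them. In Myh11 ≤1 cells the counting intervals of the libraries did not overlap, at 0.0230 to 0.137 and 0.164 to 0.380 CPM. Both comparisons passed, with adjusted p-values of 0.00183 and 0.00139 (edgeR).

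Flt1 differed from these 4 in being widely detected in smooth muscle cells as well. It was at 317 and 232 CPM in ECs, 32.3 and 23.0 in Myh11 ≥5 cells, 29.0 and 20.5 in cells with 2 to 4 Myh11 UMIs, and 23.7 and 14.6 in Myh11 ≤1 cells. A UMI of Flt1 was found in 88.2% and 75.9% of ECs, 38.9% and 32.3% of Myh11 ≥5 cells, and 23.9% and 15.5% of Myh11 ≤1 cells. In each library the levels fell in the order ECs, Myh11 ≥5, Myh11 2 to 4 and Myh11 ≤1. ECs were higher by 3.17 ± 0.34 log2 units against Myh11 ≥5 cells and by 3.75 ± 0.34 against Myh11 ≤1 cells, with adjusted p-values of 0.00309 and 0.00188 (edgeR). Levels of Flt1 in Myh11 ≥5 and Myh11 ≤1 cells overlapped between the libraries, and the difference of 0.58 ± 0.31 did not pass (adjusted p = 0.431, edgeR). With the library as a block it was 0.61 ± 0.11 with an adjusted p of 0.0145 (edgeR), and over 9 alternatives the adjusted p ran from 0.0145 to 0.613.

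For the co-receptor gene Nrp1 no comparison between classes passed in the main fit. It was at 172 and 190 CPM in ECs, 126 and 69.1 in Myh11 ≥5 cells, and 194 and 119 in Myh11 ≤1 cells. ECs lay above Myh11 ≥5 cells in both libraries, but between the values of Myh11 ≤1 cells. The difference from Myh11 ≥5 cells was 0.74 ± 0.36 log2 units with an adjusted p of 0.216 (edgeR), which became 0.82 ± 0.24 and 0.0434 with the library as a block and ran from 0.0434 to 0.424 over 13 alternatives. Against Myh11 ≤1 cells it was 0.11 ± 0.36 (adjusted p = 0.863, edgeR). Myh11 ≥5 cells lay below Myh11 ≤1 cells in each library, with counting intervals that did not overlap within a library. That difference did not pass, and over 9 alternatives its adjusted p ran from 0.105 to 0.615 (edgeR and DESeq2).

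**Figure D1:**
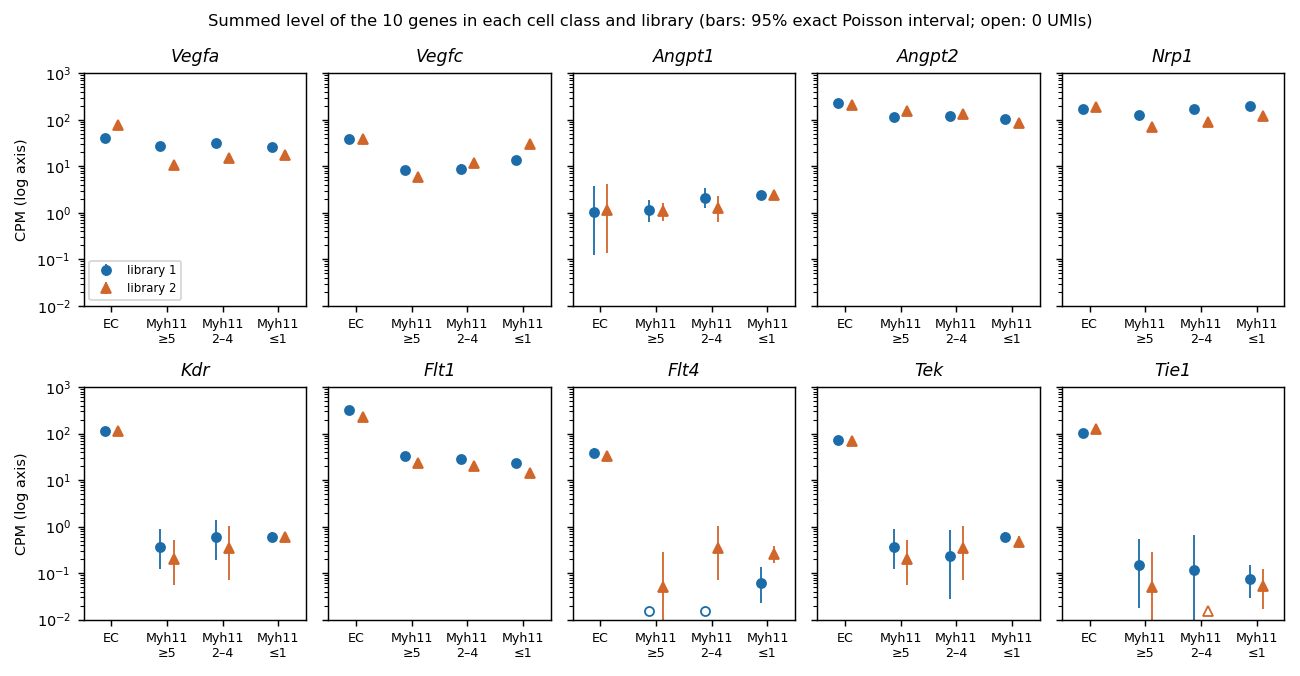
Summed CPM of the 10 genes (log axis) in ECs and the 3 Myh11 classes, for library 1 (circles) and library 2 (triangles), with 95% exact Poisson intervals and open symbols for 0 UMIs. Kdr, Flt4, Tek and Tie1 lay above 30 CPM in ECs and below 1 in the other classes, while Flt1, Nrp1, Angpt2, Vegfa and Vegfc were counted in every class.

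Among the ligand genes, Angpt2 was counted at high levels in every class. It stood at 229 and 210 CPM in ECs, 114 and 154 in Myh11 ≥5 cells, and 105 and 85.9 in Myh11 ≤1 cells, so the EC values lay above all others when every EC was counted. Angpt2 was higher in ECs than in Myh11 ≤1 cells by 1.10 ± 0.20 log2 units (adjusted p = 0.0169, edgeR). The difference of 0.56 ± 0.20 from Myh11 ≥5 cells did not pass (adjusted p = 0.106, edgeR). More Myh11 ≥5 cells than ECs had at least 1 Angpt2 UMI, 74.2% and 82.7% against 61.8% and 50.4%, at median depths of 25667 and 21018 UMIs against 14629 and 10250. After each cell was thinned to 3000 UMIs the shares were 26.8% and 34.7% in Myh11 ≥5 cells and 34.3% and 28.7% in ECs, so no order was read from the shares. The EC level of Angpt2 rested in part on ECs with a UMI of Prox1, the gene of a transcription factor that defines lymphatic endothelium: without them the difference from Myh11 ≤1 cells was 0.32 ± 0.21 and the call was lost (adjusted p = 0.363, edgeR), the difference from Myh11 ≥5 cells turned to -0.23 ± 0.21 (adjusted p = 0.524, edgeR), and over 13 alternatives the adjusted p against Myh11 ≤1 cells ran from 3.96e-05 to 0.363.

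Vegfc encodes a growth factor best known for lymphatic vessel growth. It was at 37.7 and 37.7 CPM in ECs, 8.37 and 5.97 in Myh11 ≥5 cells, and 13.4 and 30.2 in Myh11 ≤1 cells. ECs were the highest class in both libraries, and Myh11 ≥5 cells the lowest. In library 2 the counting intervals of ECs and Myh11 ≤1 cells overlapped, at 29.2 to 48.0 and 29.1 to 31.3 CPM. ECs were higher than Myh11 ≥5 cells by 2.25 ± 0.43 log2 units (adjusted p = 0.0194, edgeR), a call that was lost without the filter on low counts (adjusted p = 0.0633) and in 1 correction for free RNA (adjusted p = 0.167). Against Myh11 ≤1 cells the difference was 0.71 ± 0.40 (adjusted p = 0.279, edgeR). The Myh11 ≤1 cells of library 2 lay above those of library 1, and Myh11 ≥5 cells were lower than Myh11 ≤1 cells by 1.54 ± 0.40 without passing (adjusted p = 0.118). With the library as a block, Vegfc was called lower in Myh11 ≥5 cells (log2 difference -1.49 ± 0.37, adjusted p = 0.0422, edgeR), and over 9 alternatives the adjusted p ran from 0.0136 to 0.422.

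Vegfa, the central angiogenic ligand, was at 39.7 and 75.4 CPM in ECs, 26.9 and 10.5 in Myh11 ≥5 cells, and 25.4 and 17.1 in Myh11 ≤1 cells. ECs were the highest class in both libraries, by much less in library 1 than in library 2. The log2 difference from Myh11 ≥5 cells was 0.56 in library 1 alone and 2.84 in library 2 alone. Neither EC comparison passed, at 1.47 ± 0.54 (adjusted p = 0.116) and 1.34 ± 0.53 (adjusted p = 0.140) with edgeR. DESeq2 called the first of them (adjusted p = 0.0471), and over 13 alternatives its adjusted p ran from 0.0471 to 0.260. Myh11 ≥5 and Myh11 ≤1 cells overlapped in Vegfa, with a log2 difference of -0.13 ± 0.50 (adjusted p = 0.941, edgeR).

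Angpt1, the agonist ligand of Tie2, was scarce throughout. It gave 2 and 2 UMIs in ECs, 15 and 21 in Myh11 ≥5 cells, and 232 and 229 in Myh11 ≤1 cells, or 1.02 and 1.14, 1.12 and 1.08, and 2.43 and 2.44 CPM. The level in Myh11 ≤1 cells was the highest in both libraries. Between Myh11 ≥5 and Myh11 ≤1 cells the log2 difference was -1.09 ± 0.31 (adjusted p = 0.154, edgeR), which passed with the library as a block at the same size (adjusted p = 0.0441) and ran from 0.0441 to 0.503 over 9 alternatives. The ratio of the EC level to that of Myh11 ≤1 cells was 0.443 with a counting interval of 0.120 to 1.14, so a difference was not detectable at this depth.

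Of the 10 genes, 6 were higher in ECs than in Myh11 ≥5 cells (Kdr, Flt1, Flt4, Tek, Tie1 and Vegfc) and 6 were higher in ECs than in Myh11 ≤1 cells (the same receptor genes and Angpt2). None was lower. For comparison, 9.44% of the 13226 genes tested were called higher and 8.11% lower in ECs against Myh11 ≥5 cells, and 9.76% higher and 6.52% lower against Myh11 ≤1 cells. The median log2 difference over the 10 genes was 2.71 and 2.54, beside -0.03 and -0.03 over all genes tested. Between Myh11 ≥5 and Myh11 ≤1 cells 0 of the 10 passed with edgeR, where 1.85% of all genes were called higher and 0.423% lower. There, 5 of the 10 (Kdr, Tek, Angpt1, Angpt2 and Vegfc) had an unadjusted p-value below 0.05 with edgeR, as did 2201 of the 13226 genes tested. DESeq2 called 1 of the 10, Vegfc, as lower, beside 771 genes higher and 391 lower among all tested. Cells of 1 library share 1 culture, and the libraries are described as biological replicates, so the p-values rest on 2 preparations. Without the library as a block, the test took the sums as independent and did not use their pairing within a library.

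**Figure D2:**
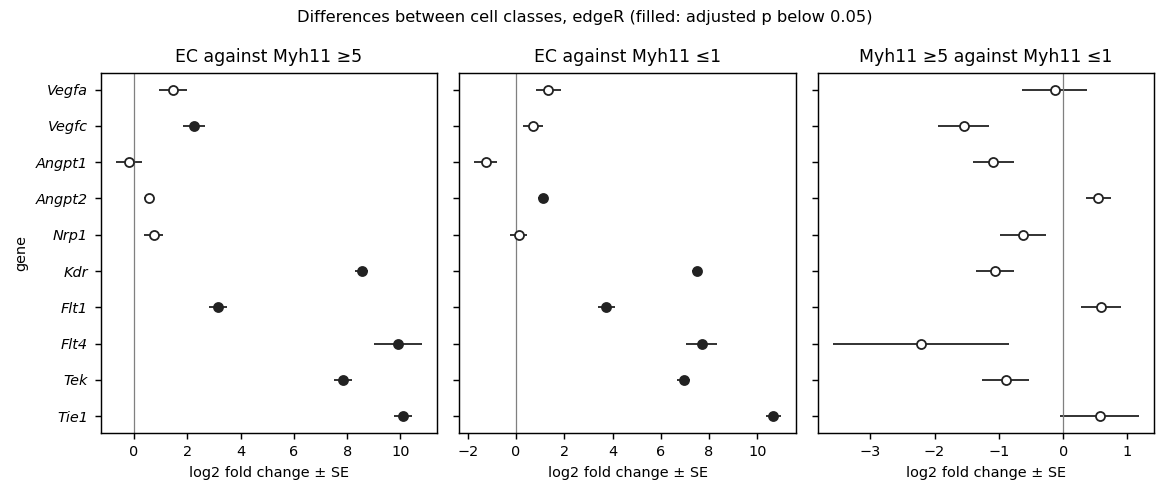
Log2 fold change with its SE (x axis) for each of the 10 genes (y axis) in 3 comparisons of cell classes, from edgeR with 2 libraries per class, filled where the adjusted p was below 0.05. In both EC comparisons Kdr, Flt4, Tek and Tie1 lay at 6.95 or more and Flt1 at 3.17 and 3.75. No point was filled between the Myh11 classes.

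The proximal promoters of 3 receptor genes that were higher in ECs are shown. Of the 3, only Flt1 was also widely counted in smooth muscle cells. The sequences are those of RefSeq on build GRCm38.p6, 5′ to 3′ on the gene's strand and upstream of annotated exons. Capitals mark the ETS motif AGGAAG and the GC box GGGCGG of either strand (on the opposite strand the GC box reads CCGCCC). Other forms of ETS site, with GGAA among other letters, were not searched or marked.
Flt1 promoter: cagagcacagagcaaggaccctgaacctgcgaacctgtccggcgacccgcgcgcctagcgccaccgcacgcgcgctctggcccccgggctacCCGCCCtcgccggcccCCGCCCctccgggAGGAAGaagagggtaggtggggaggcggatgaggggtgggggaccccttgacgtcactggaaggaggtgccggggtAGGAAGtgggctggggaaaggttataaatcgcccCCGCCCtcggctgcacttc
Kdr promoter: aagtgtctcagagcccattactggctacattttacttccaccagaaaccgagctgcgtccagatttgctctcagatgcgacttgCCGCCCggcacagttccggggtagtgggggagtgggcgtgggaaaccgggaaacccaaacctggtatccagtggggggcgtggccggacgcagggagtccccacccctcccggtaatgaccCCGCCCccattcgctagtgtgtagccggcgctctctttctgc
Tek promoter: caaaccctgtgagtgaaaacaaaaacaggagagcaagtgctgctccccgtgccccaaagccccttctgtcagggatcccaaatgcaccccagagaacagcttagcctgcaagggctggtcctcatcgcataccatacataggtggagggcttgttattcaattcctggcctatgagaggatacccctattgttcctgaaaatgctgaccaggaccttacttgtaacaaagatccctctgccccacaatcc
The Flt1 window is chr5:147726012-147726261 on the minus strand, the Kdr window chr5:75978459-75978705 on the minus strand, and the Tek window chr4:94739039-94739288 on the plus strand. The gene bodies are annotated at chr5:147561604-147726011 for Flt1, chr5:75932827-75978458 for Kdr and chr4:94739289-94874976 for Tek (GRCm38). In these letters Flt1 held 2 matches to AGGAAG and 3 to GGGCGG, Kdr 0 and 2, and Tek 0 and 0. Of 32851 promoter windows of 250 bases, 29.5% held AGGAAG and 32.7% held GGGCGG. Windows were found for 8 of the 10 genes, and AGGAAG was matched also in those of Nrp1 and Tie1, with 1 match each. The FOX motif GTAAACA, present in 3.17% of windows, was matched in none of the windows of these 8 genes. The GATA motif AGATAA (9.99%) was matched in 1 window of Vegfa, and the hypoxia response core ACGTG (16.6%) in another window of Vegfa. Some windows overlapped annotated exons: 212 of 250 bases for Tie1, 250 for Flt4, and 218 for the Vegfa window with ACGTG. Matches in those windows may thus lie in exons. A match is a description of the letters and was not tested as a binding site.

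To pair ligand-making with receptor-bearing cells, the UMIs of each gene were divided among the classes. ECs held 1.64% and 1.42% of all UMIs, Myh11 ≥5 cells 11.2% and 15.7%, and Myh11 ≤1 cells 80.0% and 75.9%. Of the receptor UMIs, ECs held 77.1% and 76.1% for Kdr, 69.2% and 70.0% for Tek, 95.4% and 97.3% for Tie1, 92.7% and 67.1% for Flt4, and 17.5% and 16.9% for Flt1. Of the ligand UMIs, Myh11 ≤1 cells held 77.6% and 77.4% for Vegfa, 83.1% and 90.9% for Vegfc, 86.9% and 87.1% for Angpt1, and 77.2% and 64.0% for Angpt2. Those shares were close to the share of all UMIs in that class for Vegfa in both libraries and for Angpt2 in library 1. Angpt2 lay below it in library 2. Vegfc and Angpt1 lay above it in both libraries, by less in library 1. Myh11 ≥5 cells held 11.7% of the Angpt2 UMIs in library 1 and 23.8% in library 2. ECs held 2.49% and 6.38% of the Vegfa UMIs, 4.81% and 2.12% of the Vegfc UMIs and 3.44% and 2.92% of the Angpt2 UMIs, in each case more than their share of all UMIs. With every EC counted, their level of these 3 ligands was the highest of the classes in both libraries. Only Vegfc against Myh11 ≥5 cells and Angpt2 against Myh11 ≤1 cells passed with edgeR. The Angpt2 call was lost without the ECs that had a Prox1 UMI. Secretion, capture and signaling were not measured.

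**Figure D3:**
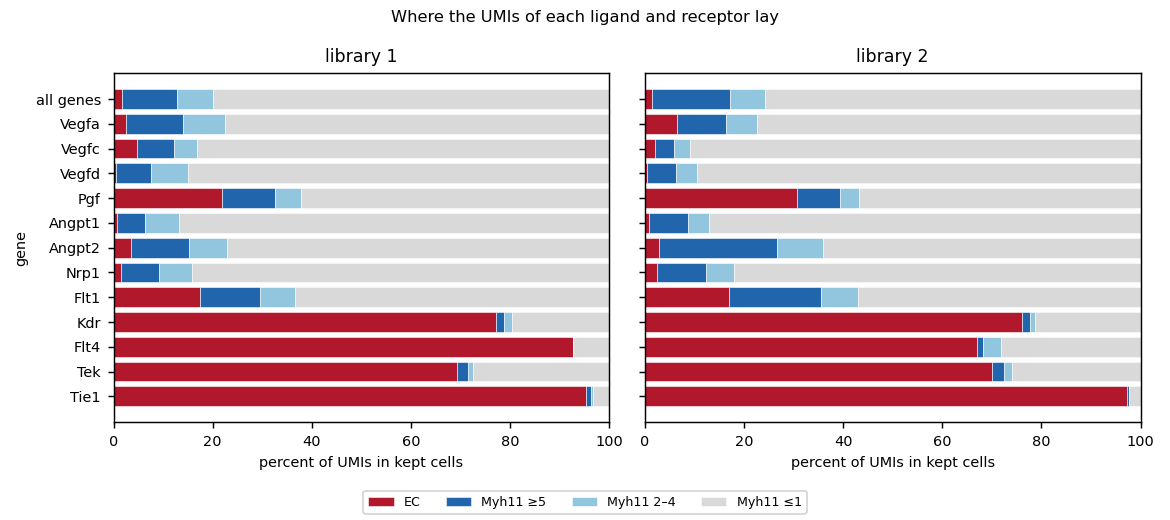
Percent of the UMIs of each gene (x axis) that lay in ECs, Myh11 ≥5, Myh11 2 to 4 and Myh11 ≤1 cells in each library, with all genes together in the top bar. ECs held 1.64% and 1.42% of all UMIs but 95.4% and 97.3% of those of Tie1 and 77.1% and 76.1% of those of Kdr, while the bars of Vegfa lay close to that of all genes.

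UMIs of a ligand and of a receptor were also counted in the same EC barcodes. Angpt2 and Tek were both detected in 39.2% of ECs in library 1 (95% exact interval 29.7 to 49.4) and 28.4% in library 2 (21.1 to 36.6). Tek was detected in 63.5% and 56.3% of ECs with an Angpt2 UMI and in 66.7% and 42.9% of those without, so the order differed between the libraries. Vegfa and Kdr were both detected in 25.5% and 27.0% of ECs, Vegfc and Flt4 in 17.6% and 9.93%, and Tek and its partner Tie1 in 54.9% and 37.6%. Kdr and Nrp1, whose products form a complex with VEGF-A, were both detected in 49.0% and 40.4%. All 6 receptor genes were detected in 12 of 102 ECs in library 1 and 7 of 141 in library 2, and none of them in 0 and 3. These shares depend on depth, and their intervals cover counting error only. Angpt2, Vegfa, Vegfc and Nrp1 were also counted in the smooth muscle cells that make up most of the culture, and the part of free RNA from those cells in their EC counts was not tested.

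ECs were not uniform in these genes. At least 1 Prox1 UMI was found in 21 and 19 ECs, a split chosen after the values were seen and given without a test. Mmrn1, a lymphatic marker, was at 30.9 and 38.0 CPM in these cells and at 0 in the other ECs. The arterial marker Gja5 was at 0 and 11.4 CPM against 69.9 and 68.6. The lymphatic marker Pdpn went opposite ways in the libraries, at 71.6 and 7.60 CPM in the cells with Prox1 against 38.0 and 19.5. Lyve1 gave 23 UMIs in library 1 and 0 in library 2 in the cells with Prox1, and Ccl21a gave 0 in both. The markers thus did not all mark these cells as lymphatic, and the cells are called by their Prox1 UMI here. Median depth was 18203 and 12084 UMIs with Prox1 and 14523 and 9830.5 without.

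In ECs with a Prox1 UMI, Angpt2 was at 470 and 756 CPM against 143 and 114 in the other ECs, and Kdr at 182 and 289 against 93.4 and 84.0. Flt4 was at 48.4 and 72.2 against 35.3 and 25.5. Both libraries had higher values of these 3 genes in the cells with Prox1, although the counting intervals of Flt4 overlapped in library 1. Lower values were seen for Nrp1, at 52.2 and 49.4 against 215 and 214, for Flt1, at 112 and 160 against 391 and 245, and for Tek, at 44.5 and 41.8 against 85.1 and 72.6, with overlapping intervals for Tek in library 2. Vegfa was at 15.5 and 15.2 against 48.4 and 86.0, and Vegfc at 11.6 and 15.2 against 47.0 and 41.7, from 4 to 8 UMIs in the cells with Prox1. Tie1 went opposite ways in the libraries, at 65.8 and 171 against 120 and 116.

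**Figure D4:**
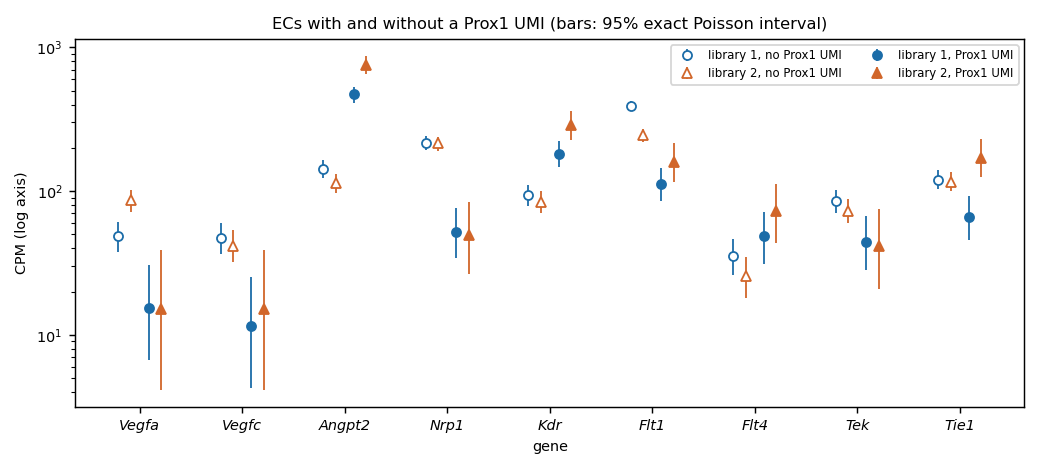
CPM (log axis) of 9 of the genes in ECs with at least 1 Prox1 UMI (filled, 21 and 19 cells) and without (open, 81 and 122 cells), for library 1 (circles) and library 2 (triangles), with 95% exact Poisson intervals. Angpt2 and Kdr were higher and Nrp1, Flt1, Vegfa and Vegfc lower with Prox1 in both libraries.

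Weakly contractile cells were then divided further, since the study describes proliferating and modulated VSMCs in such cultures. Cycling cells (at least 10 UMIs over Mki67, Top2a, Cdk1, Birc5 and Ccnb1) numbered 1219 and 1258 of the Myh11 ≤1 cells, and non-cycling cells 2735 and 4104. Of 9 genes tested, 0 passed in this split with edgeR and 0 with DESeq2, and none had an unadjusted p-value below 0.05, where 4.02% of 14114 genes were called higher and 0.0496% lower in cycling cells. With the library as a block, 3 were lower in cycling cells. That fit called 3225 of all 14114 genes lower and 3192 higher, so lower calls were common in it. Vegfa was at 19.9 and 11.9 CPM in cycling cells and 28.8 and 19.2 in the others, a log2 difference of -0.61 ± 0.07 (adjusted p = 3.39e-06 with the block and 0.534 without). Angpt2 was at 88.1 and 74.5 against 116 and 90.7, a difference of -0.36 ± 0.05 (5.52e-06 and 0.464), and Flt1 at 17.4 and 12.7 against 27.6 and 15.4, a difference of -0.50 ± 0.08 (8.64e-05 and 0.597). All 3 were lower in the cycling cells of each library. Over 5 alternatives, the block among them, the adjusted p ran up to 0.613 for Vegfa, 0.602 for Angpt2 and 0.691 for Flt1. Cycling cells had more UMIs per cell, a median of 27793 and 19921.5 against 19704 and 14468.5, and the part of depth in these differences was not tested.

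Non-cycling cells were also split by Lum, the gene of the matrix proteoglycan lumican, with at least 3 UMIs in 659 and 1390 cells and 0 in 1414 and 1575. No gene in the genome-wide fit passed (0% of 13143 called in either direction), while 356 had an unadjusted p-value below 0.05 and DESeq2 called 14. Lum itself, which set the split, was kept in this edgeR fit and did not pass, so its lack of calls says little about the other genes. None of the 8 genes tested passed with edgeR or DESeq2, and 0 were below 0.05 unadjusted. Flt1 was at 39.6 and 16.9 CPM in the cells with Lum and 21.5 and 12.4 in those without, and with the library as a block it was higher by 0.70 ± 0.11 log2 units (adjusted p = 0.0161, and up to 1.00 over 5 alternatives, edgeR and DESeq2). Nrp1 was at 226 and 135 against 184 and 109 and higher by 0.32 ± 0.05 with the block (adjusted p = 0.0114, and up to 1.00). The fit with the block called 503 of all 13143 genes higher and 273 lower. The cells with Lum had the higher value of both genes in each library, although both genes also differed between the libraries, with lower values in library 2.

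The split by Gpnmb, the gene of a lysosomal glycoprotein, held 260 and 1855 cells with at least 3 UMIs and 1668 and 823 with 0. Here too 0% of 12936 genes were called in either direction, with 370 below an unadjusted 0.05 and 36 called by DESeq2, and 0 of 8 of the listed genes passed with either tool or lay below 0.05 unadjusted. Gpnmb itself was kept in the edgeR fit and did not pass, so its lack of calls also says little about the other genes. Angpt2 was at 86.7 and 83.1 CPM in the cells with Gpnmb and 126 and 102 in those without, with a log2 difference of -0.41 ± 0.17 that did not pass (adjusted p = 1.00) and one of -0.39 ± 0.09 that passed with the block (adjusted p = 0.0240, edgeR). The fit with the block called 319 of all 12936 genes higher and 250 lower. Depth differed between these sets, with medians of 28422.5 and 17408 UMIs against 17833.5 and 10764.

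Il1rn encodes the interleukin-1 receptor antagonist. It had at least 3 UMIs in 313 cells of library 1 but only 60 of library 2, against 2151 and 3892 cells with 0. In this split 0.00759% of 13172 genes were called higher and 0% lower, with 838 below an unadjusted 0.05 and 97 called by DESeq2. Of the 8 genes, 0 passed with edgeR or DESeq2 and none was below 0.05 unadjusted. The fit with the library as a block called 533 of all 13172 genes higher and 595 lower. Flt1 was at 12.6 and 4.80 CPM in the cells with Il1rn, from 86 and 4 UMIs, and at 30.6 and 15.8 in those without. With the library as a block it was lower in the cells with Il1rn (-1.37 ± 0.19, adjusted p = 2.51e-11, edgeR), and over 5 alternatives the adjusted p ran up to 0.788. Vegfa was at 41.4 and 20.4 against 25.9 and 19.0 and was called higher with the block (0.51 ± 0.15, adjusted p = 0.00971, edgeR), but in library 2 it rested on 17 UMIs and its interval overlapped. The highest adjusted p of Vegfa over the alternatives was 1.00.

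**Figure D5:**
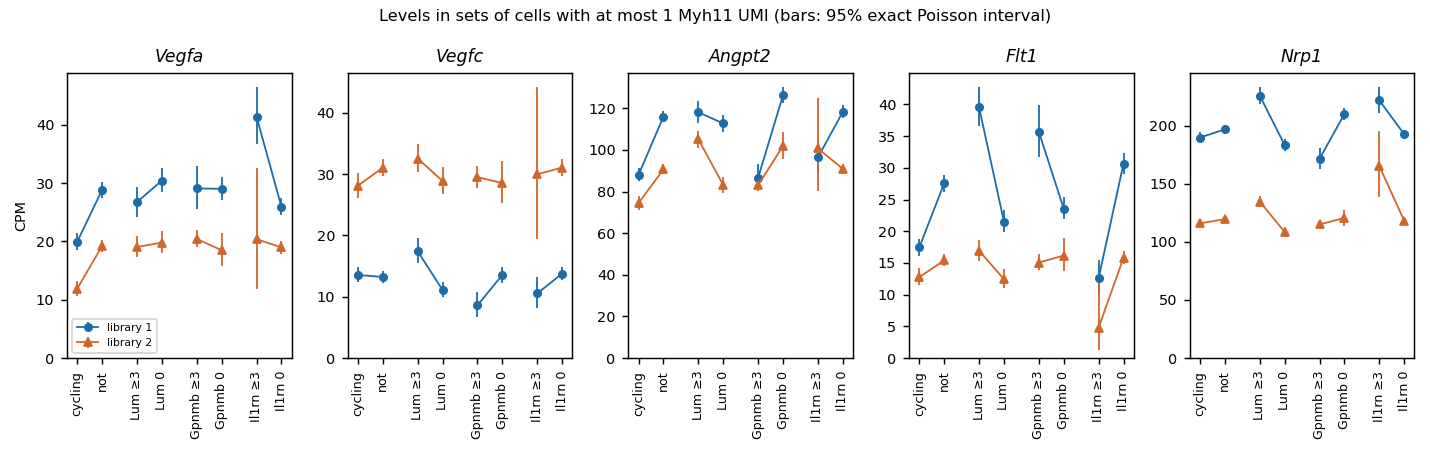
CPM of Vegfa, Vegfc, Angpt2, Flt1 and Nrp1 (y axis, from 0) in Myh11 ≤1 cells split by cycling genes and, among non-cycling cells, by Lum, Gpnmb and Il1rn (x axis), for library 1 (circles) and library 2 (triangles) with 95% exact Poisson intervals. Vegfa, Angpt2 and Flt1 were lower in cycling cells of both libraries, and Vegfc differed more between the libraries than within them.

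Other genes of the pathway were counted by lists of ligands, receptor partners, ligand processing, mediators and responses. Among the other ligands, Pgf, the gene of placental growth factor, was at 101 and 92.5 CPM in ECs. It was at 7.32 and 2.37 in Myh11 ≥5 cells and 5.90 and 3.20 in Myh11 ≤1 cells. Pgf was the only 1 of 4 to pass, by 4.20 ± 0.59 and 4.31 ± 0.58 log2 units (adjusted p = 0.00726 and 0.00630, edgeR). Over all genes tested, 9.44% and 9.76% were called higher in ECs. Vegfd, which encodes a second ligand of the Flt4 product, was at 1065 and 686 CPM in Myh11 ≤1 cells, 635 and 221 in Myh11 ≥5 cells and 272 and 142 in ECs. The EC values of Vegfd lay below those of Myh11 ≤1 cells in both libraries, but the log2 difference of -2.18 ± 0.58 did not pass (adjusted p = 0.0560, edgeR). Vegfb was at 36.2 and 57.7 CPM in ECs and 43.2 and 71.9 in Myh11 ≤1 cells, and Angpt4 at 8.15 and 0.571 against 33.3 and 12.4. Myh11 ≤1 cells held 84.9% and 89.5% of the Vegfd UMIs, beside 80.0% and 75.9% of all UMIs. Of the UMIs of Vegfc, the other ligand gene for the Flt4 product, they held similar shares, 83.1% and 90.9%. By CPM, Vegfc was highest in ECs in both libraries, but its difference from Myh11 ≤1 cells did not pass.

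Of 12 co-receptors and receptor partners, 6 were higher and 3 lower in ECs against Myh11 ≥5 cells. Against Myh11 ≤1 cells 7 were higher and 1 lower. The median log2 difference was 0.59 and 1.46. Over all genes tested, 9.44% and 9.76% were called higher and 8.11% and 6.52% lower, so the 1 lower call is near the background. Ptprb, the gene of the phosphatase VE-PTP that acts on Tie2 and VEGFR-2, was at 323 and 263 CPM in ECs against 4.41 and 1.44 in Myh11 ≥5 cells (6.54 ± 0.53 log2 units, adjusted p = 0.00130, edgeR). Plxnd1, a semaphorin receptor gene, was at 186 and 169 in ECs against 7.62 and 5.09 (4.67 ± 0.25, adjusted p = 0.000382). Cdh5 is counted among the higher calls and in both medians, but it was one of the genes that chose the ECs. Without Cdh5 the medians would be the values of Itga5 against Myh11 ≥5 cells, -0.18, and of Sema3a against Myh11 ≤1 cells, 1.36. The integrin gene Itgb1 was lower in ECs, at 617 and 621 against 1196 and 992 in Myh11 ≥5 cells (-0.97 ± 0.16, adjusted p = 0.0114), and Itgav at 57.1 and 40.5 against 93.3 and 70.1 (-0.89 ± 0.23, adjusted p = 0.0454). Sema3a, which encodes a ligand of neuropilin-1, and Itgb3 were the 2 of 12 that passed between the Myh11 classes. Both were higher in Myh11 ≥5 cells, where 1.85% of all genes were called higher.

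Of 12 genes of ligand processing and capture, 11 were tested, and 2 were higher (Furin and Adam10) and 1 lower (Ccn2, listed as Ctgf) in ECs against each smooth muscle class, where 9.44% and 9.76% of all genes were called higher and 8.11% and 6.52% lower. The 1 lower call is near those shares. Ccn2, whose product binds VEGF-A in the matrix, was at 410 and 450 CPM in ECs, 1558 and 1784 in Myh11 ≥5 cells and 851 and 1009 in Myh11 ≤1 cells. It was lower in ECs (log2 differences of -2.11 ± 0.14 and -1.20 ± 0.14, adjusted p = 0.000805 and 0.00406, edgeR) and also higher in Myh11 ≥5 than in Myh11 ≤1 cells (0.90 ± 0.14, adjusted p = 0.0359). Of 18 intracellular mediators, 5 were higher and 2 lower against Myh11 ≥5 cells, and 6 higher and 1 lower against Myh11 ≤1 cells, the lower calls being near the 8.11% and 6.52% over all genes and the higher calls standing beside 9.44% and 9.76%. Mapk3 was at 197 and 232 CPM in ECs against 90.5 and 98.5 in Myh11 ≥5 cells, while Akt1 was at 175 and 123 against 151 and 133 and did not pass (adjusted p = 0.830, edgeR).

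The list of endothelial genes known to respond to VEGF held 10 genes. In ECs 7 were higher against Myh11 ≥5 cells and 6 against Myh11 ≤1 cells, with 0 lower. Over all genes tested, 9.44% and 9.76% were called higher and 8.11% and 6.52% lower. Their median log2 difference was 3.75 and 1.97. Plvap, a gene of the diaphragms of endothelial fenestrae, was at 279 and 278 CPM in ECs against 4.11 and 5.45 in Myh11 ≥5 cells (5.70 ± 0.38, adjusted p = 0.000793, edgeR), and the Notch target Nrarp at 74.4 and 108 against 1.72 and 0.566. Esm1, a marker of VEGF-exposed tip cells, was at 13.2 and 18.3 in ECs and at 29.8 and 35.9 in Myh11 ≤1 cells, with no call. Several of these genes are also known from ECs without added VEGF.

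Of 14 hypoxia factors and targets tested, 6 were higher and 1 lower in ECs in each comparison, beside 9.44% and 9.76% higher and 8.11% and 6.52% lower over all genes, so that the lower call is near the background. Epas1, the gene of HIF-2α, was at 204 and 192 CPM in ECs against 12.8 and 17.9 in Myh11 ≥5 cells (3.54 ± 0.32, adjusted p = 0.00185, edgeR), and Pgk1 at 731 and 635 against 312 and 351 (0.89 ± 0.13, adjusted p = 0.00902). Hif1a, at 156 and 243 against 141 and 189, and Ldha, at 610 and 614 against 599 and 592, did not pass. Adm, the gene of adrenomedullin, was lower in ECs than in Myh11 ≤1 cells, at 47.9 and 51.4 against 165 and 222 (-2.05 ± 0.37, adjusted p = 0.0169). None of the 5 lists beyond the ligands had a gene called in the splits of Myh11 ≤1 cells, nor did the other ligands, with edgeR without a block.

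The genes whose pattern was most like that of each receptor were sought over 14 sums, from 7 cell groups in 2 libraries, among 8008 genes. For Tie1 these were Gimap1, Fgd5 and Tmem252, with Pearson's r of log2 values between 0.9986 and 0.9992. For Tek they were Adgrl4, Cldn5 and Tmem252 (0.9955 to 0.9965), for Kdr Mmrn2, Tspan13 and Fgd5 (0.9951 to 0.9955), and for Flt4 Podxl, Adgrl4 and Tmem252 (0.9973 to 0.9985). In these 4 the values are set by the contrast of ECs with the other groups, and Cldn5 was one of the genes that chose the ECs. Flt1 was most like Ralb (0.981), Nrp1 most like Fzd4 (0.976), Angpt2 most like Rnpepl1 (0.965), Vegfc most like Nav1 (0.968), Vegfa most like Epb41l4aos (0.931) and Angpt1 most like Serpinb1a (0.895). The sums share libraries and depth, so these are descriptions.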

How the data were processed

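Per the labels and the study's methods, libraries were made with the 10x 3′ v3 chemistry and processed by the authors with Cell Ranger on mm10 (GRCm38). The submitters' notes name version 3.0.2, and the matrix headers name 3.0.2 for library 1 and 3.1.0 for library 2. The deposited values are raw UMI counts per gene and barcode, unfiltered, with 127949633 and 132561822 UMIs in 2 libraries. The 10 genes and the gene lists were chosen with earlier results of these data known.

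Cells were filtered and classed as stated in the report. No doublet caller was run, and 9 kept barcodes were shared by both libraries (4.89 expected for independent draws). Counts were summed per library and class and tested with edgeR 4.0.16 (quasi-likelihood, TMM, filterByExpr, R 4.3.3) over all genes with Benjamini-Hochberg adjustment at 0.05. The 3 classes shared 1 fit and each split of Myh11 ≤1 cells had its own. The sums of a library come from the same culture, and their deviations from the class means correlated (r = 0.304 for ECs with Myh11 ≥5, 0.342 for ECs with Myh11 ≤1 and 0.654 between the Myh11 classes), so the library number pairs them. The test was checked on simulated data that were drawn without a shared effect of the library, so the check does not cover this pairing. The main fit had no term for the library. A block for the library, DESeq2 1.42.0, other size factors, no filter, other cell and class cuts, single libraries and subtraction of free RNA were alternatives. Levels are UMIs per 1000000 UMIs (CPM) over the summed cells, with exact Poisson intervals, and shares have exact binomial intervals, which cover counting error only.

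The 10 genes were named in every class. From each list, values were given for genes among the 6 with the highest mean level over the 3 classes, and Sema3a, Itgb3 and Furin, counted by name, were picked after their values were seen. Of the list genes, Ca9 and Figf, the older symbol of Vegfd, were absent, and Ccn2 was found under the symbol Ctgf.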

Additional observations from a re-analysis of the deposited data

How the results depend on the processing

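All 13 tested alternatives kept Kdr, Flt1, Flt4, Tek and Tie1 higher in ECs in both EC comparisons. Against Myh11 ≥5 cells, 2321 genes were called, with 1514 without the filter on low counts and 3981 with the replicate block, and against Myh11 ≤1 cells 2153, with 1389 and 4123. Between the Myh11 classes 301 genes were called, with 70 without the filter, 1162 by DESeq2, 2153 with the block and 636 with classes cut on CPM, and of the 10 genes DESeq2 called 1 lower and the block 1 higher and 2 lower. In the cycling split 575 were called, with 984 by DESeq2 and 6417 with the block, which called 3 of the 10 genes lower. For Lum the counts were 0, and 1 without the filter, 14 by DESeq2 and 776 with the block, which called 2 higher. For Gpnmb they were 0, then 54, 36 and 569, with 1 lower. For Il1rn they were 1, then 543, 97 and 1128, and 10 with a threshold of 5 UMIs, and 1 of the genes was called higher with the block and 1 lower with it and without the filter. The replicate block changed no other call of the 10 genes than those given in the report.

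The Angpt2 difference between ECs and Myh11 ≥5 cells turned to -0.23 (adjusted p = 0.524) without ECs with a Prox1 UMI, an alternative chosen after the data were seen. The Nrp1 difference between ECs and Myh11 ≤1 cells turned to -0.035 (adjusted p = 0.968) when free RNA was subtracted at shares of 53.2% and 35.4%, which were set by 6 endothelial genes of which Egfl7 and Ecscr were also counted in smooth muscle cells. Shares of 3.16% and 3.81%, from Pecam1, Cdh5 and Cldn5 and added after the data were seen, are low by selection because the EC rule used those genes, and called the same numbers of the 10 genes. The median share of ECs with a UMI over the 10 genes was 56.6% and fell to 25.4% when cells were thinned to 3000 UMIs. ECs are few, so the 2 Angpt1 UMIs per library and the counts in ECs with Prox1 limit what could be seen. The cause of the other changes was not tested.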

Other observations

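Lymphatic and pericyte markers were read in the same classes. Prox1 was at 64.7 and 58.3 CPM in ECs against 0.261 and 0.341 in Myh11 ≤1 cells, and Pdpn at 46.9 and 17.7 against 115 and 116. The 4 pericyte markers summed to 302 and 281 CPM in Myh11 ≥5 cells, 170 and 184 in Myh11 ≤1 cells and 53.0 and 49.1 in ECs, and the 4 Schwann cell markers to between 4.89 and 31.3. The 5 arterial markers summed to 398 and 495 CPM in ECs, 49.5 and 93.9 in Myh11 ≥5 cells and 37.2 and 59.9 in Myh11 ≤1 cells. The 3 venous markers summed to 309 and 204 in ECs, 90.9 and 39.8 in Myh11 ≥5 cells and 109 and 88.9 in Myh11 ≤1 cells. The venous marker Nr2f2 had a mean of 69.2 CPM in ECs and 91.6 in Myh11 ≤1 cells. The lists differ in their number of genes, so their sums were not compared with each other.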
